A study of Mus musculus with 6 samples.

Results

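The genes described here encode the interleukin-1 and interleukin-18 cytokines, their receptors and antagonists, and the inflammasome that activates them. They were chosen by symbol, as all probe sets whose platform annotation names Il1b, Il1rn, Il1r2, Il1rap, Il18, Il18rap, Il18bp, Casp1, Nlrp3 or Pycard. These 10 genes had 19 of the 45101 probe sets on the array, and 15 of the 19, at least 1 for each gene, passed the filter on low values and were tested. All 10 genes were thus among the 10810 genes tested.

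Expression was measured with Affymetrix arrays in CD11b+Gr1+ myeloid cells sorted from bone marrow (femur and tibia) of HdcGFP mice, all female and with a C57BL/6 background. Both sorted groups came from these reporter mice, in which green fluorescence marks cells with an active gene for histidine decarboxylase, the enzyme that makes histamine. GFP_plus is the fraction with positive or high reporter signal (3 arrays), and GFP_min the fraction with negative or low signal (3 arrays). The labels give no treatment, age or pooling of animals, nor do they state whether each of the 3 samples of a group had its own mouse. All p-values therefore rest on the variation among these arrays alone, and that variation could be technical. The sort label of GFP_min replicate b is Gr1-positive like the others, but its description reads Gr1-negative. The comparison asks how marrow myeloid cells with a strong Hdc reporter differ from those with a weak one.

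Interleukin-1 beta and interleukin-18 are made as inactive precursors. Sensor proteins such as NLRP3 assemble with the adaptor ASC, encoded by Pycard, and recruit caspase-1, which cuts both precursors to their active forms. Interleukin-1 acts through a signalling receptor and a shared accessory chain and is held back by a receptor antagonist and by a decoy receptor, while interleukin-18 has a receptor pair of its own and is neutralised by a secreted binding protein. Neutrophils and monocytes are both known sources of interleukin-1 beta.

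Of the 10 genes, 7 were higher and 3 lower in GFP_plus at an adjusted p under 0.05 (limma, Benjamini-Hochberg over 22956 probe sets). Among their 15 tested probe sets, 10 were higher and 3 lower, where 21.7% and 22.9% of all tested probe sets were. Over all genes tested, 21.0% were higher and 27.6% lower, so that 48.7% changed in either direction. The 7 higher genes encode interleukin-1 beta, the interleukin-1 antagonist, the decoy receptor, the accessory chain of the interleukin-1 receptor, the accessory chain of the interleukin-18 receptor, the interleukin-18 binding protein and NLRP3. Their differences lay within a narrow range, 0.57 to 0.78 on the log2 scale, or 1.48-fold to 1.72-fold. The 3 lower genes were Il18, Casp1 and Pycard, with folds of 1.41 to 2.36 and differences of -0.49 to -1.24. The median difference of the 10 genes was 0.63, against 0.0023 over all genes tested. The 10 genes were chosen with earlier results of these data known, so the comparison with all genes is a description and no test. In each of the 10 genes the 3 GFP_plus arrays lay entirely on one side of the 3 GFP_min arrays, as was the case in 59.3% of all genes tested. Without GFP_min replicate b, whose labels conflict, the same 7 genes were higher and the same 3 lower.

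**Figure D1:**
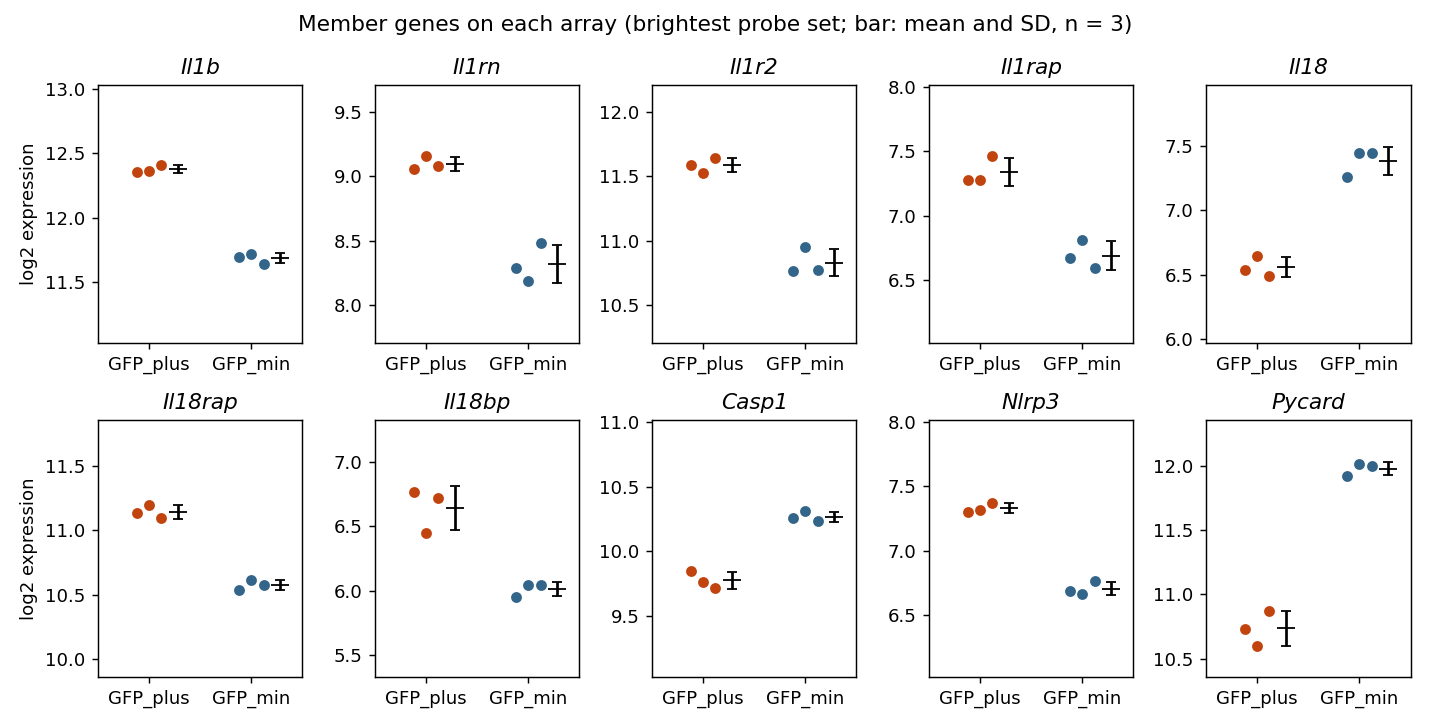
Log2 expression (vertical axis, a span of the same size in each panel) of the 10 member genes on each GFP_plus and GFP_min array, with the group mean and SD (n = 3) as bars. The groups are apart in every panel, with GFP_plus above in 7 genes and below in Il18, Casp1 and Pycard.

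The arrays had medians of 2.82 to 2.88 and correlated over tested probe sets at 0.995 to 0.997 within a group and at 0.961 to 0.967 between groups. Hdc, whose reporter was used for sorting and which is no result here, averaged 12.01 ± 0.06 in GFP_plus and 11.19 ± 0.03 in GFP_min (log2, SD, n = 3 each), and Itgam, which encodes CD11b, 11.84 ± 0.13 and 11.58 ± 0.23. Markers of monocytes were lower in GFP_plus for 8 of 8 genes listed, and their mean log2 level per array ranged from 7.39 to 7.40 in GFP_plus and from 12.22 to 12.25 in GFP_min. Among them Csf1r, the receptor of the macrophage growth factor, averaged 11.34 ± 0.04 in GFP_plus and 12.56 ± 0.07 in GFP_min. Markers of mature neutrophils were higher for 4 of 9 tested and lower for 0, with mean levels of 13.72 to 13.80 in GFP_plus and 13.53 to 13.58 in GFP_min. Granulocyte precursor markers were higher for 4 of 4, at 11.52 to 11.70 against 10.23 to 10.30. Basophil markers were higher for 5 of 5, at 4.68 to 4.76 against 2.64 to 2.68, with Cpa3 and Fcer1a below the array medians on every GFP_min array, and Mcpt8, a basophil protease, averaged 7.62 ± 0.31 in GFP_plus and 3.41 ± 0.10 in GFP_min. Of the 4 dendritic cell markers tested 1 was higher and 2 were lower, at 3.36 to 3.42 against 4.61 to 4.83 with Cd209a and Siglech below the array medians in GFP_plus, and of 4 macrophage markers 3 were higher and 1 lower. Of the stem and progenitor markers 2 of 2 tested were higher, at 6.81 to 6.93 against 6.14 to 6.33, and of the T and NK cell markers 2 of 3 were lower, with a median difference of -0.84. The 1 eosinophil marker tested was higher, with Ccr3 and Il5ra below the array medians in both groups. Of the B cell markers 1 of 5 was lower, and 1 of 1 erythroid and 1 of 2 megakaryocyte markers tested were higher. Beside these marker counts, 21.0% of all genes tested were higher and 27.6% lower. The part of these cell types in the results below was not tested, and in sorted bulk samples fewer cells of a type and less RNA per cell cannot be told apart. The signal gap between the 3′ and 5′ control probe sets, a sign of RNA quality, was 0.59 to 0.66 in GFP_plus and 0.26 to 0.37 in GFP_min for Gapdh, and 0.82 to 0.90 and 0.79 to 0.83 for beta-actin. Its part in the results was not tested either.

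Il1b, the gene of interleukin-1 beta, read 12.35, 12.36 and 12.41 on the GFP_plus arrays and 11.69, 11.72 and 11.64 on the GFP_min arrays a, b and c (log2). The 3 values of a group lay within a range far smaller than the distance between the groups. The rise of 0.69 (SE 0.05, 95% interval 0.59 to 0.79, limma adjusted p = 1.87e-06) is a 1.61-fold difference, and 95.2% of all genes tested had a lower difference. Its signal lay far above the array medians in both fractions.

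Il1rn encodes the receptor antagonist, which occupies the interleukin-1 receptor without signalling. Its brightest probe set read 9.06, 9.16 and 9.08 in GFP_plus, against 8.29, 8.19 and 8.48 in GFP_min. All GFP_plus arrays were higher, and the difference was 0.78 (SE 0.10, limma adjusted p = 0.000141). This was the largest rise of the 10 genes on the deposited values of all 6 arrays, equally weighted. Another probe set rose by 0.54 (6.99 ± 0.02 in GFP_plus and 6.44 ± 0.22 in GFP_min, adjusted p = 0.00938). The dimmest probe set averaged 6.33 ± 0.09 in GFP_plus and 6.13 ± 0.13 in GFP_min, and its difference of 0.20 did not pass (adjusted p = 0.246, 95% interval -0.09 to 0.48). It was called higher after quantile normalization (0.39, adjusted p = 0.0338), median centring (0.40, adjusted p = 0.0234) and ribosomal centring (0.72, adjusted p = 0.000625), and was -0.21 without a call with poly-A centring. The gene makes secreted and intracellular forms from 3 annotated starts in the RefSeq promoter table, and which probe set reads which form is not given in the sources used here.

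Il1r2 encodes the decoy receptor, which binds interleukin-1 without passing on a signal. It read 11.59, 11.53 and 11.64 in GFP_plus, against 10.76, 10.95 and 10.77 in GFP_min. The arrays of the groups did not overlap, and the rise was 0.76 (SE 0.07, limma adjusted p = 1.33e-05), or 1.69-fold. Il1rap, the accessory chain that interleukin-1, interleukin-33 and interleukin-36 receptors share, read 7.27, 7.28 and 7.46 in GFP_plus, against 6.67, 6.81 and 6.59 in GFP_min. Its difference was 0.65 (SE 0.12, adjusted p = 0.00159), and the other tested probe set gave 0.69 (6.10 ± 0.30 in GFP_plus and 5.42 ± 0.04 in GFP_min, adjusted p = 0.00744). The other 3 probe sets of Il1rap lay below the median of every array, at 1.98 to 2.61 in GFP_plus and 1.82 to 2.68 in GFP_min on average, and were not tested.

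Il18, the gene of interleukin-18, moved the other way from Il1b. It read 6.54, 6.65 and 6.49 in GFP_plus, against 7.26, 7.45 and 7.45 in GFP_min. Every GFP_plus array was lower, and the fall was -0.83 (SE 0.12, limma adjusted p = 0.000304), which is 1.77-fold. Il18bp, the binding protein that neutralises interleukin-18, read 6.77, 6.45 and 6.72 in GFP_plus, against 5.95, 6.05 and 6.04 in GFP_min. It was higher on all GFP_plus arrays, by 0.63 (SE 0.13, adjusted p = 0.00350), with GFP_plus replicate b the lowest of its group.

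Il18rap is the accessory chain of the interleukin-18 receptor. Its brightest probe set read 11.13, 11.20 and 11.09 in GFP_plus, against 10.54, 10.61 and 10.57 in GFP_min, a rise of 0.57 (SE 0.06, limma adjusted p = 3.60e-05). Its other probe set rose by 0.70 (9.60 ± 0.07 in GFP_plus and 8.89 ± 0.19 in GFP_min, adjusted p = 0.000397). The groups did not overlap in either probe set.

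Nlrp3, the sensor, read 7.30, 7.31 and 7.37 in GFP_plus, against 6.69, 6.67 and 6.76 in GFP_min. All 3 GFP_plus arrays were higher, by 0.62 (SE 0.11, limma adjusted p = 0.00104), or 1.54-fold. Pycard, which encodes the adaptor ASC that links sensors to caspase-1, had the largest fall of the 10 genes. Its brightest probe set read 10.73, 10.60 and 10.88 in GFP_plus, against 11.92, 12.01 and 12.00 in GFP_min. The fall of -1.24 (SE 0.07, adjusted p = 7.41e-07) is 2.36-fold, and the signal in GFP_plus was still far above the array medians. Falls of at least 1 log2 were called in 8.75% of all genes tested. A much dimmer probe set of Pycard averaged 3.50 ± 0.07 in GFP_plus and 3.81 ± 0.20 in GFP_min, and its difference of -0.31 did not pass (adjusted p = 0.0853). It passed without GFP_min replicate a (-0.41, adjusted p = 0.0455) and with poly-A centring (-0.71, adjusted p = 0.000231), and was 0.21 without a call with ribosomal centring. The remaining one lay below the array medians on all arrays (2.02 and 2.29 on average in GFP_plus and GFP_min) and was not tested.

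Casp1, the protease that cuts the precursors of interleukin-1 beta and interleukin-18, read 9.85, 9.76 and 9.72 in GFP_plus, against 10.26, 10.31 and 10.24 in GFP_min. The GFP_plus arrays were all lower, by -0.49 (SE 0.07, limma adjusted p = 0.000263), or 1.41-fold. This is the smallest difference of the 10 genes, and it turned to 0.03 (adjusted p = 0.715) when arrays were centred on ribosomal protein genes.

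**Figure D2:**
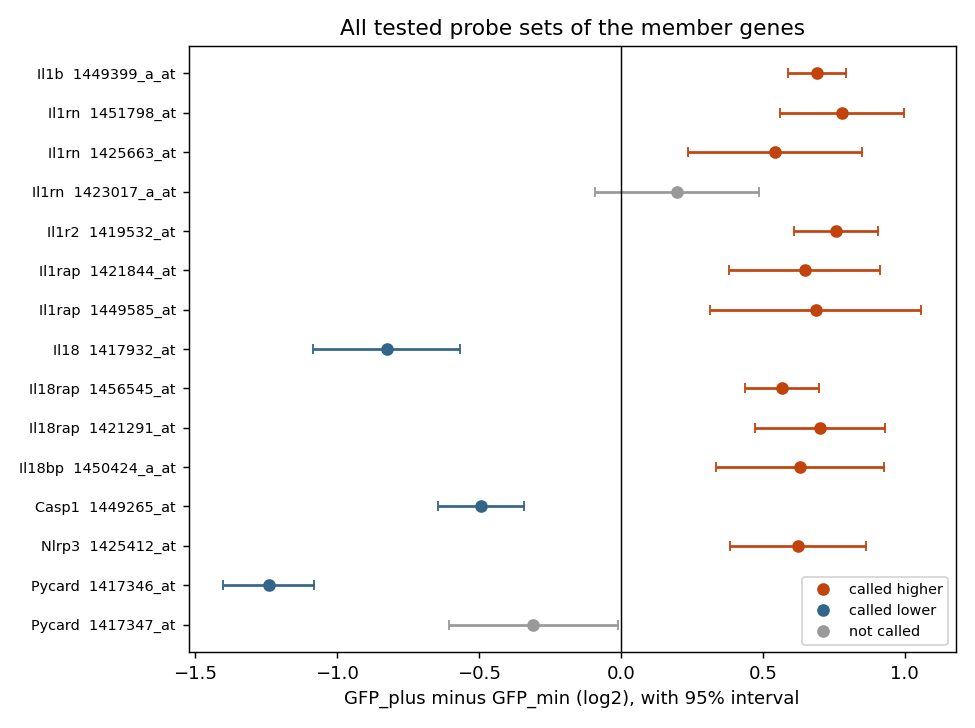
Difference of GFP_plus minus GFP_min (log2, horizontal axis) with its 95% interval for the 15 tested probe sets of the member genes, coloured by call. Of the 15 probe sets, 10 were higher, 3 lower and 2 not called, and no gene had probe sets called in opposite directions.

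Since a constant added to all log2 values of an array cancels in a ratio of genes on it, 6 ratios of member genes were compared between the groups. Only their change is meaningful, because levels of different probe sets cannot be set against each other. With 3 arrays a group the exact permutation test, two-sided, cannot go below 0.1, and p-values adjusted over the 6 ratios cannot pass 0.05. The ratio of Il1b to its antagonist Il1rn changed by -0.09 log2 in GFP_plus relative to GFP_min (SD 0.07 in GFP_plus and 0.19 in GFP_min, exact p = 0.5, adjusted 0.5). That of Il1b to the decoy receptor gene Il1r2 changed by -0.07 (SD 0.04 and 0.08, exact p = 0.4, adjusted 0.48), and that of Il1r2 to Il1rap by 0.11 (SD 0.07 and 0.05, exact p = 0.2, adjusted 0.3). In these 3 ratios the groups overlapped, and the test did not separate them, which does not show that the ratios are equal.

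The other 3 ratios had groups that did not overlap, each with the smallest exact p the design allows, 0.1 (adjusted 0.2). Relative to the GFP_min mean, the ratio of Il1b to Casp1 stood at 1.09, 1.19 and 1.28 log2 on the GFP_plus arrays, and at 0.02, -0.01 and -0.01 on the GFP_min arrays. The ratio of Nlrp3 to Pycard stood at 1.84, 1.98 and 1.77 in GFP_plus, against 0.04, -0.07 and 0.04 in GFP_min, a 3.64-fold change. For Il18 relative to its binding protein the GFP_plus arrays stood at -1.60, -1.17 and -1.60 and the GFP_min arrays at -0.06, 0.03 and 0.03, so the ratio was 2.74-fold lower in GFP_plus. Each of these 3 pairs joins genes called in opposite directions, so that separate groups follow from the choice of the pair and are no further support. The sizes of the changes do not depend on a constant added to an array, but they can depend on the normalization. After quantile normalization Nlrp3 differed by 0.78 and Pycard by -1.26, against 0.62 and -1.24 on the deposited values.

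**Figure D3:**
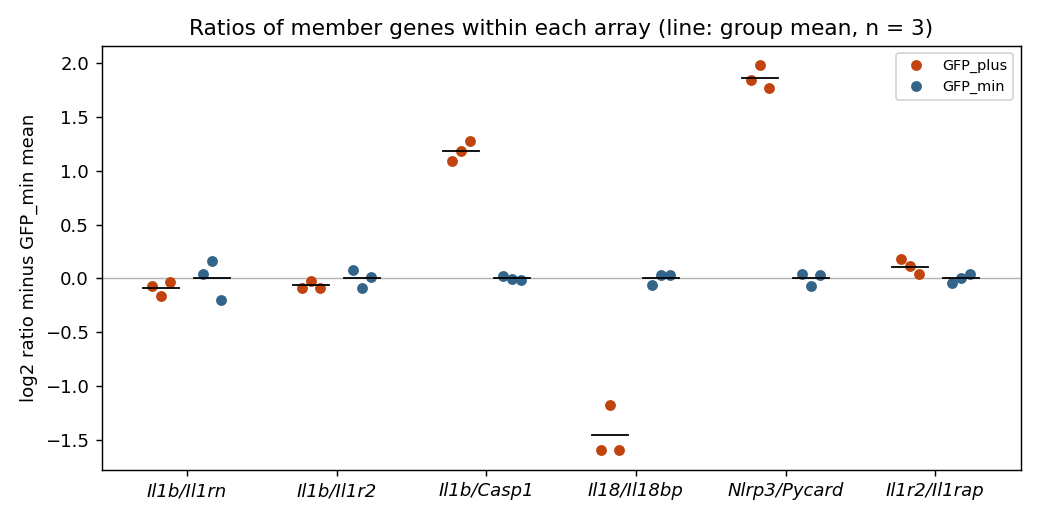
Log2 ratio of gene pairs on each array, as the distance from the GFP_min mean (vertical axis), with GFP_plus arrays left of GFP_min arrays and lines at group means (n = 3). The ratios Il1b to Il1rn, Il1b to Il1r2 and Il1r2 to Il1rap overlap between groups, while Il1b to Casp1 and Nlrp3 to Pycard lie higher and Il18 to Il18bp lower in GFP_plus.

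The genes with the profiles most like that of Il1b over the 6 arrays were Csf3r, Cd300lf and Adam8, at distances of 0.04, 0.05 and 0.06 log2 (Euclidean, each profile minus its own mean), where the median distance over all genes was 0.91. Csf3r, the receptor of the granulocyte growth factor G-CSF, averaged 12.41 ± 0.05 in GFP_plus and 11.70 ± 0.05 in GFP_min and differed by 0.71, next to 0.69 for Il1b. Closest to Nlrp3 were Mob3c, Tbc1d10c and Tnnt1 (0.06, 0.06 and 0.07), and closest to Il18 were Ercc8, Casp2 and Nudt19, each at 0.12. With arrays of only 2 groups, a short distance means above all a difference of similar size.

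The sequences before the start sites are shown for the cytokine gene that rose, for a rising receptor gene whose window holds the most motif matches, and for the 3 genes that fell. RefSeq promoter windows of GRCm38.p6 were matched by gene symbol for all 10 genes and cover the 250 bases before the annotated start, all of which were searched. They are printed 5′ to 3′ on the gene's strand, for Il1b without the 25 bases nearest the start, which lie inside the annotated span of the gene. Capitals mark 2 motifs searched on both strands: GAGGAAG, the core that the myeloid factor PU.1 recognises, and TTNNGNAA, a loose form of the site of C/EBP factors, which drive granulocyte genes.
Il1b (chr2:129371165-129371389, minus strand): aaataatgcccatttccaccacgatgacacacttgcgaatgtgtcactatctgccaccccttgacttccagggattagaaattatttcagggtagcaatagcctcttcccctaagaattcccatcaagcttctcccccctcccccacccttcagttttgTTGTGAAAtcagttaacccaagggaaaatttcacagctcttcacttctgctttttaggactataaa
Il18rap (chr1:40515112-40515361, plus strand): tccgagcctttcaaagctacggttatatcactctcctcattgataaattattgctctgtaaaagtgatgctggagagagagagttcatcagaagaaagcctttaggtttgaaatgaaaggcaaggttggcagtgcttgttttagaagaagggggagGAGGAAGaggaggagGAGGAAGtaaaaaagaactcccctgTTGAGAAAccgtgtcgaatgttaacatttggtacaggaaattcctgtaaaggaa
Il18 (chr9:50554450-50554699, plus strand): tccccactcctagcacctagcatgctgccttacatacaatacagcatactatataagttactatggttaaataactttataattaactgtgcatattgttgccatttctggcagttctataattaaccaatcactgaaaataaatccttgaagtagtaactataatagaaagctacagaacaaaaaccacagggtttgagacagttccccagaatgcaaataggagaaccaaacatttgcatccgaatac
Casp1 (chr9:5298267-5298516, plus strand): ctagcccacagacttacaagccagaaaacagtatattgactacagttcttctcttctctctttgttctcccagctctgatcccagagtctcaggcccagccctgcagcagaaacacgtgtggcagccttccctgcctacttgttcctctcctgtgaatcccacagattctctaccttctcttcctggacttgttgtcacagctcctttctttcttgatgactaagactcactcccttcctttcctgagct
Pycard (chr7:127993868-127994117, minus strand): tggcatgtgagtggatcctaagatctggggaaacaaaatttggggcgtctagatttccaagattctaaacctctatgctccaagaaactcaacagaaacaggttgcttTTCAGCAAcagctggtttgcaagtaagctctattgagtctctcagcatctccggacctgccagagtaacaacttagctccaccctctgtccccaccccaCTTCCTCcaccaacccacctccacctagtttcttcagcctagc
Il1b held 1 match to the C/EBP form, TTGTGAAA, 84 to 91 bases before the start, Il18rap 2 matches to the PU.1 core and 1 to the C/EBP form, and Pycard 1 of each. No match to either motif, nor to TGANTCA (AP-1) or to a site of NF-kB, was found in the windows of Il18 and Casp1, which fell, or in those of Il1r2 and Il1rap, which rose. Of the Il1rap window, however, 196 of the 250 bases lie inside the annotated span of that gene. The same holds for most bases of the Il1r2 window and of some windows of Il1rn and Nlrp3. The lack of matches for Il1r2 and Il1rap therefore says little about the sequence before these genes. The windows of Il18bp, Nlrp3 and Il1rn, not printed here, held 1 or more matches, so that neither direction of change went with a motif throughout. Among 32851 windows of the same length, 10.6% held the PU.1 core, 36.8% the C/EBP form, 6.75% the AP-1 site and 1.41% the NF-kB site. A match is a description of letters, and these windows were not measured in the cells.

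The other genes of the pathway were taken from a list of 59 genes, of which 39 were tested. Of these, 15 were higher and 8 lower in GFP_plus, where 21.0% and 27.6% of all genes were, with a median difference of 0.06. In 26 of the 39 the groups did not overlap, as in 59.3% of all genes tested. Il1rl1, Irak4, Nlrp1a, Nlrp1b, Nlrc4 and Naip1 were not analysed here.

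Among the other ligands only Il36g passed the filter on low values. This interleukin-36 cytokine gene read 10.49, 10.60 and 10.59 in GFP_plus, against 10.12, 10.12 and 10.20 in GFP_min, and rose by 0.42 (SE 0.06, limma adjusted p = 0.000520). Il1a, Il33, Il36a, Il36b, Il36rn and Il1f10 lay too low on the arrays to be tested. Il1r1, the signalling receptor of interleukin-1, was also too low, at 2.79 in GFP_plus and 2.53 in GFP_min on average for its brighter probe set, so that of the interleukin-1 receptors only the decoy and the accessory chain gave a tested signal.

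Of 3 other receptor genes tested, 1 was higher and 1 lower (all genes: 21.0% and 27.6%). Il18r1, the ligand-binding chain of the interleukin-18 receptor, read 9.24, 9.27 and 9.32 in GFP_plus, against 8.99, 8.57 and 8.91 in GFP_min, a rise of 0.45 (SE 0.11, limma adjusted p = 0.00788). Both chains of this receptor were therefore higher in GFP_plus. Sigirr, an inhibitory member of the family, averaged 3.52 ± 0.02 in GFP_plus and 4.10 ± 0.16 in GFP_min and fell by 0.58 (adjusted p = 0.00426), while Il1rl2, the interleukin-36 receptor, was at the level of the array medians with a difference of 0.04 (adjusted p = 0.779). In the mouse genome Il1r2, Il1r1, Il1rl2, Il1rl1, Il18r1 and Il18rap are consecutive protein-coding genes on chromosome 1. Of these 6 neighbours, Il1r2, Il18r1 and Il18rap were called higher, Il1rl2 was not called, and Il1r1 was too low to test.

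Receptor signalling genes were higher for 6 of 13 tested and lower for 0 (all genes: 21.0% and 27.6%). Myd88, the adaptor shared with Toll-like receptors, averaged 11.05 ± 0.05 in GFP_plus and 10.79 ± 0.10 in GFP_min, a rise of 0.26 (limma adjusted p = 0.0105). Irak3, an inhibitory kinase family member, rose by 0.30, Irak2, a kinase of the same family, by 0.44, and Peli2, a ubiquitin ligase of this route, by 0.52 (adjusted p = 0.0123, 0.00568 and 0.0127). Centring on the poly-A controls turned Myd88 to -0.15 and Irak3 to -0.11 and left 0.03 for Irak2. Without GFP_plus replicate a, Myd88 and Irak3 were no longer called. A dimmer Irak3 probe set rose by 0.21 without a call (limma adjusted p = 0.224). The dimmer Peli2 probe sets rose by 0.43 and 0.30, also without a call (adjusted p = 0.169 and 0.0961). Other genes of the route had probe sets that disagreed: the brightest of Irak1, Map3k7, Ube2n and Peli1 were not called, but a dimmer one was lower for Irak1 (-0.51), Map3k7 (-0.70) and Ube2n (-0.39) and higher for Peli1 (0.48).

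Of 6 other sensor genes tested, 1 was higher and 2 were lower (all genes: 21.0% and 27.6%). Nlrp12, an NLR gene known for limiting inflammatory signalling in myeloid cells, read 10.27, 10.42 and 10.26 in GFP_plus, against 9.39, 9.32 and 9.35 in GFP_min, and rose by 0.97 (SE 0.07, limma adjusted p = 4.69e-06). Naip6 averaged 6.18 ± 0.24 in GFP_plus and 7.92 ± 0.14 in GFP_min and fell by 1.74 (adjusted p = 1.05e-05), and Naip5 fell by 0.59 (adjusted p = 0.000595). Naip2 differed by -0.14 without passing (adjusted p = 0.144). The Naip genes, which detect bacterial flagellin and secretion proteins, are related copies with similar sequences, so probe sets may share signal and their values are uncertain as to the copy.

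Genes of cell death and of inflammasome regulation were higher for 2 of 10 tested and lower for 5 (all genes: 21.0% and 27.6%). P2rx7, the ATP-gated channel whose opening triggers NLRP3, read 2.63, 2.69 and 3.04 in GFP_plus, against 7.27, 7.34 and 6.82 in GFP_min. It was thus near the array medians in GFP_plus, above them on only 1 of 3 arrays, and the measured difference was -4.35 (SE 0.18, limma adjusted p = 8.13e-08). With so low a signal in GFP_plus, its exact fold is uncertain. Falls of at least 3 log2 were called in 1.60% of all genes. Another probe set of P2rx7 averaged 2.54 in GFP_plus, below the median on all 3 arrays, and 4.80 in GFP_min, at least 3.84-fold lower (adjusted p = 5.41e-06). This probe set passed the filter on low values through the GFP_min arrays alone, so its p-value is no separate support. Panx1, a channel that releases ATP, fell by 1.14. Brcc3, which deubiquitinates NLRP3, fell by 1.08, and Casp8, a caspase that can also cut interleukin-1 beta, fell by 0.79 (adjusted p = 6.49e-05, 2.06e-05 and 4.61e-05 in that order). A dimmer Brcc3 probe set fell by 0.66 with a call (limma adjusted p = 0.0166) and another by 0.18 without (adjusted p = 0.479). The remaining Brcc3 probe sets lay below the array medians on all arrays and were not tested. The strict filter, which asks for a signal above the median on all 6 arrays, left P2rx7 untested.

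Known response genes of interleukin-1 and Toll-like receptor signalling were higher for 4 of 6 tested and lower for 0 (all genes: 21.0% and 27.6%). Ptgs2, the inducible cyclooxygenase, read 6.17, 6.27 and 5.91 in GFP_plus, against 4.05, 3.76 and 4.07 in GFP_min, and rose by 2.15 (SE 0.16, limma adjusted p = 3.55e-06), or 4.45-fold. Cxcl2, a neutrophil chemokine, rose by 1.21 (4.90 ± 0.25 in GFP_plus and 3.69 ± 0.10 in GFP_min, adjusted p = 0.000165). Rises of at least 1 log2 were called in 1.52% of all genes. Nfkbiz, a nuclear cofactor of NF-kB, rose by 0.75 (adjusted p = 0.00293), and the feedback inhibitor Nfkbia by 0.26 (adjusted p = 0.000834). Other Nfkbia probe sets gave 0.13 and 0.08 without a call (limma adjusted p = 0.186 and 0.383), and 0.34 and 0.55 with one. Dimmer Nfkbiz probe sets gave 0.59 with a call and 0.40 without (adjusted p = 0.0838). With poly-A centring the brightest Nfkbia probe set turned to -0.15.

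**Figure D4:**
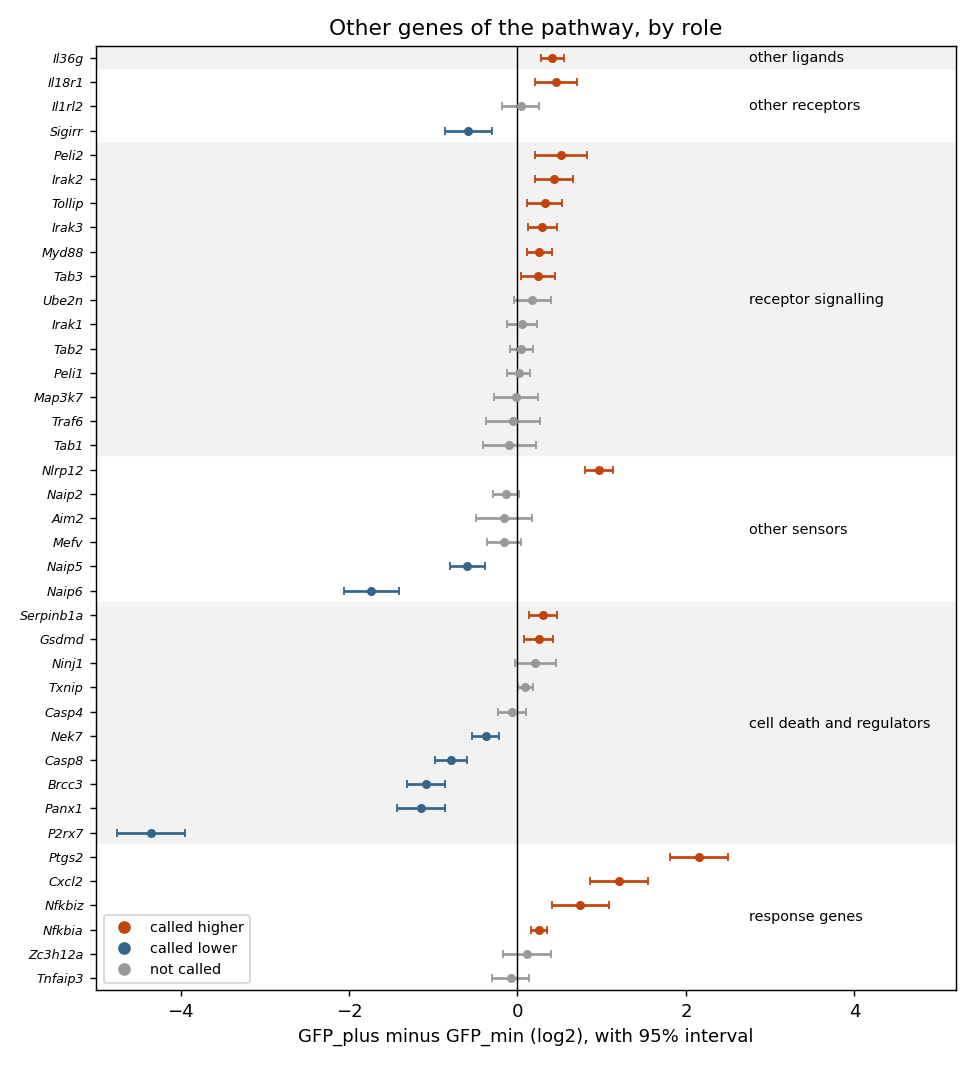
Difference of GFP_plus minus GFP_min (log2, horizontal axis) with its 95% interval for the 39 other pathway genes tested, ordered by role and coloured by call. The widest differences are those of P2rx7 (-4.35) and Ptgs2 (2.15).

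The size and, for small differences, the direction of a change depended on how arrays were scaled. Relative to the deposited values, centring on the median of tested probe sets adds 0.20 to each difference, centring on ribosomal protein genes adds 0.52 and centring on the bacterial poly-A control RNAs adds -0.41. Under the first 2 of these all 7 higher members were called higher, and with poly-A centring Il1b (0.29), Il1rn (0.37) and Il1r2 (0.35) were. Il1rap (0.24), Il18rap (0.16), Il18bp (0.23) and Nlrp3 (0.22) kept their direction there without a call. Pycard and Il18 were called lower under all 3 centrings, by -0.72 to -1.65 and by -0.30 to -1.23. Among the other pathway genes named, poly-A centring also ended the calls of Il36g (0.01), Il18r1 (0.05) and Peli2 (0.11), and ribosomal centring those of Sigirr (-0.06) and Naip5 (-0.07). Il1rl2 and Naip2, not called on the deposited values, were called higher with ribosomal centring (0.56 and 0.39, limma adjusted p = 0.000619 and 0.000740). With poly-A centring Il1rl2 and Naip2 were called lower (-0.37 and -0.54, adjusted p = 0.0349 and 0.000277). The order of the members, and every difference between them, is the same under each centring, since each adds a constant. Other settings changed the order. After quantile normalization Il18bp (0.814) stood above Il1rn (0.806), and with array weights Il1r2 (0.79) stood above Il1rn (0.72).

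**Figure D5:**
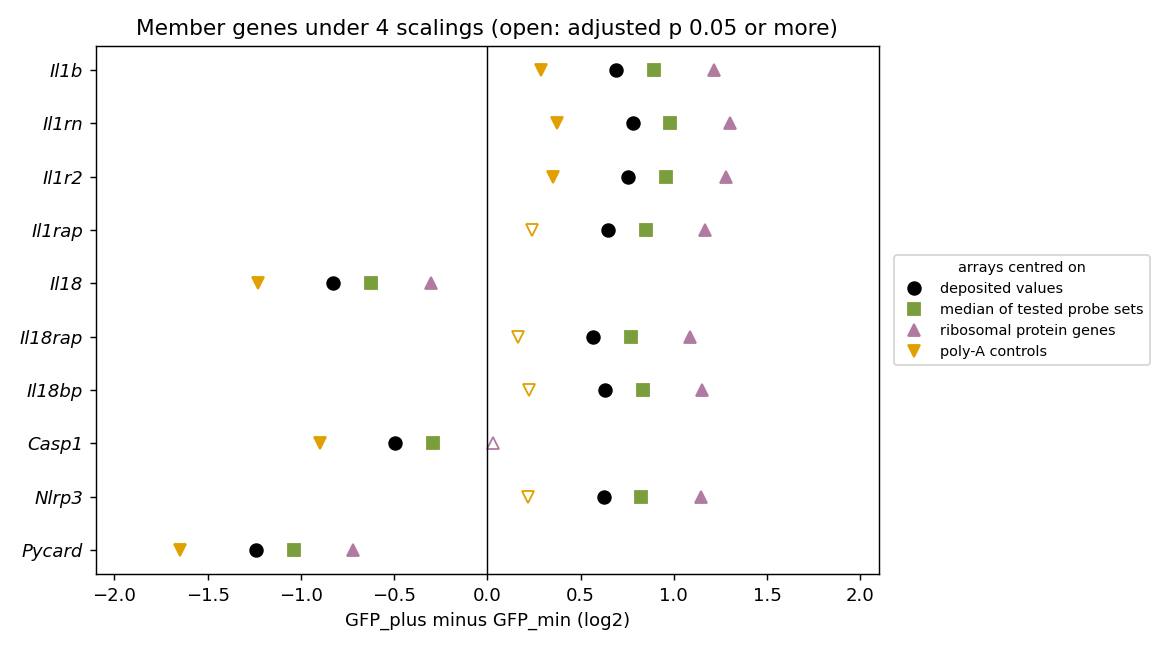
Difference of GFP_plus minus GFP_min (log2, horizontal axis) of the 10 member genes on the deposited values and after 3 centrings, with open symbols where the adjusted p was 0.05 or more. All symbols of a gene lie on the same side of 0 except those of Casp1, which reached 0.03 with ribosomal centring.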

How the data were processed

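The sorted cells' RNA was isolated on columns and a 3′ IVT kit made labelled RNA from 100 ng, per the labels' protocols. The authors deposited log2 expression values for 45101 Affymetrix probe sets on 6 arrays. GCRMA is named in the submitters' processing notes, without settings. The log2 scale follows from the range of the values (0.87 to 14.92). They were used as deposited.

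Titles gave the groups and replicate letters. Gene symbols were taken from the platform annotation (34945 with 1 symbol, 932 with several, which named no gene), with symbols updated through gene IDs in RefSeq's GRCm38.p6 table. The filter on low values left out 64 controls and kept probe sets above their array's median on 3 or more of 6 arrays (22956 probe sets). A gene was its probe set with the highest mean, of 10810 genes. limma 3.58.1 (R 4.3.3; lmFit and eBayes, trend = TRUE) tested GFP_plus minus GFP_min. The p-values were adjusted by Benjamini-Hochberg across the 22956 probe sets, and a call needed 0.05. The same fit was run on simulated data for this comparison, with 100 of 10810 genes given a change. It recovered 40% of genes given a change of 0.5 log2 and 87% of those given 1 log2, and called 3 unchanged genes in each case. In the real data 48.7% of genes were called, which moves the threshold, so these shares need not hold there. Precision is limited by the number of arrays.

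The members, gene lists, markers and ratios were chosen with earlier results of these data known. The genes named are all members, up to 4 tested genes with the smallest adjusted p of each pathway list, 5 markers and the 3 profiles closest to Il1b, Il18 and Nlrp3. Other genes named only as untested, or to complete a count, were added after their values were seen. Alternatives changed the filter, variance model, array weights, normalization, centring, probe sets of a gene, the replicate letter as a block, and each sample left out. Python 3.11.15 with matplotlib 3.10.9 drew the plots.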

Additional observations from a re-analysis of the deposited data

How the results depend on the processing

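Member genes called higher (7) and lower (3) had the same counts under every alternative run, except that poly-A centring gave 3 higher and ribosomal centring 2 lower. Leaving out each sample in turn gave 7 to 7 higher and 3 to 3 lower. Of the single member probe sets, Casp1 turned to 0.0291 and the dimmer tested Pycard probe set to 0.21 with ribosomal centring, and the dimmest Il1rn probe set to -0.21 with poly-A centring, none of them called. Over all genes, poly-A centring gave 420 higher and 6028 lower (6.51% of calls higher, against 43.2% on the deposited values), ribosomal centring 7321 and 1228 (85.6%) and median centring 4472 and 2091 (68.1%). The other pathway genes gave 4 higher and 21 lower with poly-A centring, and 31 and 5 with ribosomal centring. A centring adds the same constant to every difference, which moves these counts. It can also change the spread among arrays on which the p-values rest. With poly-A centring the limma adjusted p of Pycard went from 7.41e-07 to 1.53e-36. Leaving out each sample in turn, 11 to 16 of the other pathway genes were higher and 8 to 8 lower.

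The labels name no pairing of samples by replicate letter. Arrays of the same letter deviated from their group means with correlations of -0.18, -0.30 and -0.22, and arrays of different letters with -0.02 to 0.24. So few values cannot decide whether the samples were paired. With the letter as a replicate block, 1737 genes were higher and 2603 lower, with 7 and 3 of the members, and 12 and 8 of the other pathway genes. Of the 33 calls among members and other pathway genes, 30 were shared with that fit, and Gsdmd, Tab3 and Tollip were lost. Differences of dim probe sets, near the array medians, are limited by signal over background.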
